A study of Mus musculus with 6 samples.

Results

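The miR-126 locus is represented by 4 rows among the 1482 rows of a small RNA count table from mouse spinal cord. They are mmu-miR-126a-3p and mmu-miR-126a-5p, the arms of the hairpin in the gene Egfl7, and mmu-miR-126b-5p and mmu-miR-126b-3p, the arms of a hairpin annotated on the opposite strand. The rows were taken by name (the mouse prefix mmu is left out from here on), and all 4 had enough counts to be among the 614 rows tested. The libraries labelled SCI (spinal cord injury, 3 mice) are described in the labels as cords given a laminectomy at T10 and a moderate contusion from a 10 g weight dropped 20 mm. Those labelled control (3 mice) are described as cords with the T10 laminectomy alone, and the data go against these labels in a way given before the results. All mice were killed on day 2, and a piece of cord some 1 cm long, centred on T10, was taken whole, so the vessels, meninges and any blood in the piece were sequenced with the neural tissue. The labels used here give no strain.

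miR-126 is the best-known miRNA of endothelial cells, the lining of blood vessels, and it is transcribed with its host gene Egfl7, which encodes a protein secreted by endothelium. In mice and zebrafish its 3p arm represses Spred1 and Pik3r2, which restrain signalling from the VEGF receptor, and loss of the miRNA leaves vessels leaky. The 5p arm is described in mouse endothelium as a repressor of Dlk1. Platelets and early blood progenitors also carry miR-126, so it is not found in endothelium alone.

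The counts given later show why miR-126a-5p and miR-126b-3p cannot be read as separate RNAs. The sequences below show how the hairpins and the other arms lie on the locus. They are from RefSeq on GRCm38.p6, written 5′ to 3′, with the seed (bases 2 to 8 of a mature miRNA) in capitals. The miR-126a-5p row is given by its name and counts only.
miR-126a-3p: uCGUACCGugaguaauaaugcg
miR-126b-3p: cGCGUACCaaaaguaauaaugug
miR-126b-5p: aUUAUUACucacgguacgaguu

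The hairpins lie on chromosome 2, Mir126a on the plus strand at chr2:26591357-26591429 and Mir126b on the minus strand at chr2:26591363-26591420. In GENCODE M21, 9 Egfl7 transcripts span the hairpin. In 8 of them it is intronic, between an exon ending at 26591063 and one starting at 26591664, and in the remaining 1 it lies inside an exon. In the first hairpin the capitals mark the bases opposite miR-126b-3p and then miR-126a-3p itself. In the second they mark miR-126b-5p and then miR-126b-3p.
Mir126a hairpin: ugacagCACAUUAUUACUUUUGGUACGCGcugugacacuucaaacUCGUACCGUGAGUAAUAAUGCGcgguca
Mir126b hairpin: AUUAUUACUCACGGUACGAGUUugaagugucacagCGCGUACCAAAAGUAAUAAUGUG

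The Mir126b hairpin is the exact reverse complement of bases 7 to 64 of the 73-base Mir126a hairpin. Because the hairpin is also close to its own reverse complement, miR-126a-3p and miR-126b-3p were alike in sequence. They come from opposite strands and do not overlap. Aligned without gaps they shared 17 of 22 bases. Counted from the 5′ end of miR-126a-3p, the differences were U1G, G8A, U9A, G10A and C21U, where miR-126a-3p has the first base and miR-126b-3p the second. Their seeds differ by a shift of 1 base. Of the 614 rows tested, 521 had a mature sequence in the RefSeq table, and 0 of these shared the seed of miR-126a-3p, miR-126b-3p or miR-126b-5p.

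**Figure D1:**
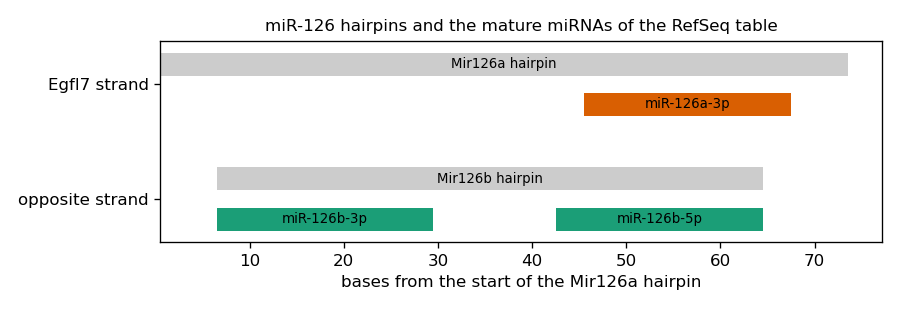
Positions of the miR-126 hairpins (grey) and of the 3 mature miRNAs listed with positions (coloured), in bases from the start of the Mir126a hairpin, by strand. miR-126b-5p and miR-126a-3p face each other across 19 bases, with their ends 3 bases apart on each side.

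Total counts ran from 7100472 to 8889977 in the SCI-labelled and from 5568491 to 7360149 in the control-labelled libraries. Both of the following facts about the libraries touch every value given later. Control-labelled library 3 stood apart from its group. Its counts differed from those of control-labelled libraries 1 and 2 by a chi-square of 1575 and 1028 per degree of freedom, where pairs within the SCI-labelled group gave 189 to 309 and control-labelled libraries 1 and 2 gave 340. The injury miRNAs ran against the labels. miR-21a-5p, known to rise in injured tissues, stood at 12001 ± 774 CPM in SCI-labelled and 100064 ± 27257 CPM in control-labelled libraries (SD, n = 3 each), 8.34-fold lower (edgeR adjusted p = 7.02e-05). Columns of the SCI-labelled samples also carry names that begin with Normal, while those of the control-labelled samples begin with Control. No column name holds SCI, so the names alone cannot decide which group was injured. The labels of the groups may thus have been exchanged, which was not tested. If they were, every direction given here would turn round. Groups are therefore called by their labels, and every direction is SCI-labelled relative to control-labelled as deposited.

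miR-126a-3p was among the most abundant miRNAs of every library. It had 130380, 104643 and 163694 counts in SCI-labelled libraries 1, 2 and 3, against 176015, 115475 and 99782 in control-labelled libraries 1, 2 and 3. This placed it between rank 13 and rank 18 of 1482 rows in the SCI-labelled and between rank 12 and rank 19 in the control-labelled libraries. CPM here means counts over the library total after TMM scaling, times 1e+06, which sets libraries of differing composition on one scale and holds no term for length. On that scale it stood at 16152, 16218 and 18541 CPM in SCI-labelled libraries 1, 2 and 3, against 28179, 20901 and 11748 CPM in control-labelled libraries 1, 2 and 3. All SCI-labelled libraries lay inside the range of the control-labelled ones, whose highest and lowest values were those of the first and the third library.

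miR-126a-3p averaged 16970 ± 1360 CPM in SCI-labelled and 20276 ± 8233 CPM in control-labelled libraries (SD, n = 3 each). The log2 change was -0.26 (SE 0.29, 95% interval -0.92 to 0.41) and did not pass edgeR's quasi-likelihood test (adjusted p = 0.515). The interval holds clear falls as well as modest rises, so the data do not show that the level was alike. The result depended on single control-labelled libraries. Without control-labelled library 3 the fall was past the test (log2 -0.49, edgeR adjusted p = 0.0332), and without control-labelled library 1 the sign turned (log2 0.11, adjusted p = 0.777). In whole tissue, fewer endothelial cells and less miR-126 per cell cannot be told apart.

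**Figure D2:**
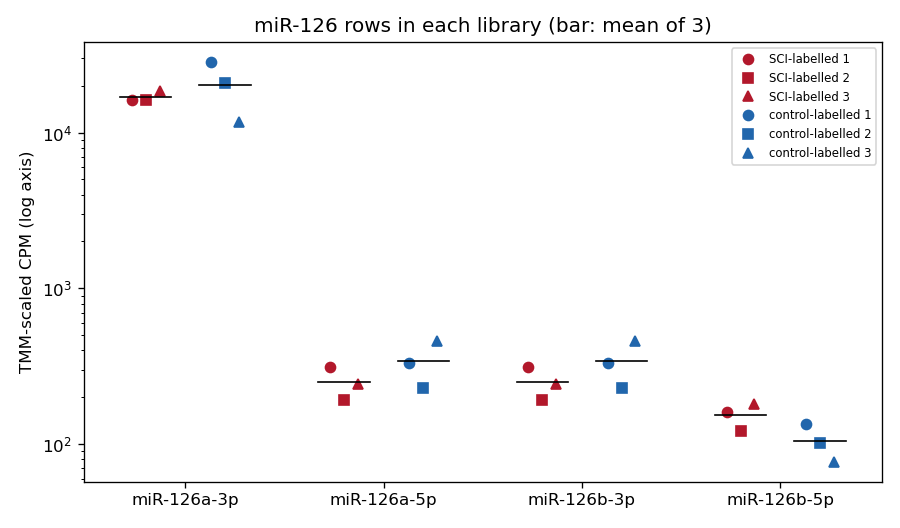
TMM-scaled CPM of the miR-126 rows (log axis) in each of the 3 SCI-labelled (red) and 3 control-labelled (blue) libraries, with the mean of each group as a bar. miR-126a-3p lies far above the other rows, the miR-126a-5p and miR-126b-3p points coincide, and control-labelled library 3 is lowest of its group for miR-126a-3p and highest for miR-126a-5p.

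miR-126a-5p, the minor arm, had 2516, 1234 and 2161 counts in SCI-labelled libraries 1, 2 and 3, against 2063, 1276 and 3916 in control-labelled libraries 1, 2 and 3. In TMM-scaled CPM that was 312, 191 and 245 in the SCI-labelled libraries and 330, 231 and 461 in the control-labelled ones, in the same order. The groups overlapped. The highest value was that of control-labelled library 3, the library in which the 3p arm was lowest. The means were 249 ± 60.3 CPM in SCI-labelled and 341 ± 115 CPM in control-labelled libraries (SD, n = 3 each). The log2 change was -0.45 (SE 0.30, 95% interval -1.13 to 0.22; edgeR adjusted p = 0.263), and it was -0.13 without control-labelled library 3 (edgeR adjusted p = 0.664).

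The row of miR-126b-3p repeated that of miR-126a-5p. It had 2515, 1234 and 2161 counts in SCI-labelled libraries 1, 2 and 3, and 2063, 1276 and 3916 in control-labelled libraries 1, 2 and 3. The 2 rows thus differed by 1 count in SCI-labelled library 1 and by none in the others. Their log2 changes were equal to the second decimal, and they stand for 1 signal. This was not peculiar to the locus. The RefSeq table places 17 pairs of tested rows on opposite strands with at least 10 bases of overlap, and in 8 of them the counts were near equal, within 1 percent or 2 counts in every library. Whether such a read came from the Egfl7 strand or from the strand opposite cannot be told from the table.

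miR-126b-5p, which faces miR-126a-3p, was counted apart from it. Among the 17 pairs, 3 have ends that are 3 bases apart on both sides, this pair included, and 0 of these 3 had near-equal counts. Of the others, miR-136-3p (mean 1089 CPM) was close to miR-3071-5p (1037 CPM), and miR-30e-3p had 2.00 times the CPM of miR-30f. Pairs with other offsets, such as miR-129b-5p and miR-129-2-3p, also lacked near-equal counts. Whether the offset sets the counts apart was not tested. Over all libraries miR-126a-3p averaged 143 times the CPM of miR-126b-5p, the widest gap among the 17 pairs. miR-126b-5p had 1292, 782 and 1612 counts in SCI-labelled libraries 1, 2 and 3, against 849, 562 and 658 in control-labelled libraries 1, 2 and 3. Those are 160, 121 and 183 CPM in the SCI-labelled and 136, 102 and 77.5 CPM in the control-labelled libraries. It was the least abundant miR-126 row in every library. It was also the only one of the 4 whose mean was higher in the SCI-labelled group, at 155 ± 31.1 CPM against 105 ± 29.4 CPM in control-labelled libraries (SD, n = 3 each).

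The libraries of the groups overlapped for miR-126b-5p, since control-labelled library 1 lay above SCI-labelled library 2. The log2 change was 0.56 (SE 0.27, 95% interval -0.049 to 1.17), which missed the threshold (edgeR adjusted p = 0.135). Without control-labelled library 1 it passed (log2 0.85, edgeR adjusted p = 0.0453). The strand its reads came from cannot be told from the table.

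**Figure D3:**
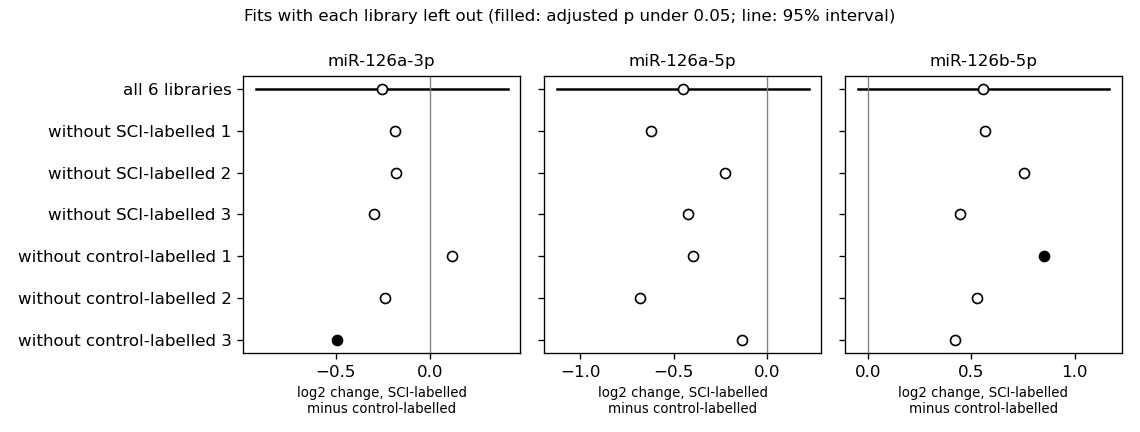
Log2 change, SCI-labelled minus control-labelled, of miR-126a-3p, miR-126a-5p and miR-126b-5p with all 6 libraries (95% interval as a line) and with each library left out; filled points have an edgeR adjusted p under 0.05. Only the removal of control-labelled library 3 for miR-126a-3p and of control-labelled library 1 for miR-126b-5p gave a filled point, and miR-126a-3p crosses 0 without control-labelled library 1.

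In all, 0 of the 4 miR-126 rows were past edgeR's test with all 6 libraries, whether p was adjusted or not (under 0.05 in either case). The other tools run, DESeq2 and limma voom with quality weights, also called 0 of them. Of all 614 rows tested, 39.4% were called. The groups did not overlap in 0 of the 4 rows, against 51.3% of all tested rows. With 1 shared signal among the 4, these are 3 readings of a single locus and not independent replicates.

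For the miR-126a hairpin, the balance of the arms was set apart mainly by 1 library. miR-126a-5p made up 1.89%, 1.17% and 1.30% of the counts of both miR-126a arms in SCI-labelled libraries 1, 2 and 3, against 1.16%, 1.09% and 3.78% in control-labelled libraries 1, 2 and 3. The 95% Wilson intervals of control-labelled library 3 (3.66% to 3.89%) and SCI-labelled library 1 (1.82% to 1.97%) did not reach those of any other library, and they cover counting error only. The 3p arm was thus counted 25.5 times as often as the 5p arm in control-labelled library 3, and 51.8 to 90.5 times as often in the other libraries.

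Between the groups, the log2 ratio of 3p over 5p differed by 0.19 in edgeR's test of arm usage (diffSpliceDGE, adjusted p = 0.719 over 179 hairpins, of which 30.2% were called). Without control-labelled library 3 its sign turned (-0.36, edgeR adjusted p = 0.255). The exact two-sided permutation test of the ratio over libraries gave p = 1, and the smallest that 3 against 3 libraries allow is 0.1.

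For the miR-126b hairpin, miR-126b-5p made up 33.9%, 38.8% and 42.7% of the counts of both rows in SCI-labelled libraries 1, 2 and 3, against 29.2%, 30.6% and 14.4% in control-labelled libraries 1, 2 and 3. All SCI-labelled shares lay above all control-labelled ones, and control-labelled library 3 was again far from its group. The levels of 51.3% of all tested rows also did not overlap between the groups, and the like figure for arm ratios is not given. This ratio was added after the data were seen. The miR-126b-3p counts in the miR-126b shares are those of miR-126a-5p. The log2 ratio of 3p over 5p did not pass the arm usage test (-1.01; edgeR adjusted p = 0.062). Without control-labelled library 3 it was -0.55 (adjusted p = 0.226), and without control-labelled library 1 it passed (-1.25, edgeR adjusted p = 0.044). The exact two-sided permutation test gave p = 0.1, the smallest possible.

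The balance of miR-126b-5p against miR-126a-3p also parted the groups. The levels of 51.3% of all tested rows did so too, and the like figure for ratios of rows is not given. This balance was looked at after the counts were seen. miR-126b-5p was 0.981%, 0.742% and 0.975% of the counts of the 2 rows in SCI-labelled libraries 1, 2 and 3, against 0.480%, 0.484% and 0.655% in control-labelled libraries 1, 2 and 3. The lowest SCI-labelled share had a 95% Wilson interval of 0.692% to 0.795%, and the highest control-labelled share one of 0.607% to 0.707%, so these 2 intervals overlap. The mean share was 0.899% ± 0.137 in SCI-labelled and 0.540% ± 0.0999 in control-labelled libraries (SD, n = 3 each). The log2 ratio of miR-126b-5p over miR-126a-3p was higher by 0.75 in the SCI-labelled group, and an exact two-sided permutation test gave p = 0.1, the smallest possible, which is not past 0.05. A ratio within a library needs no scaling.

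**Figure D4:**
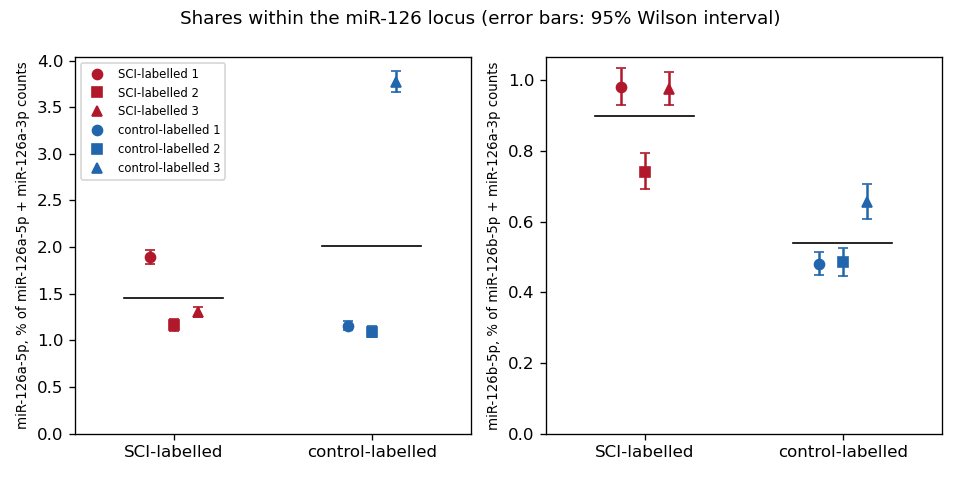
Left, miR-126a-5p as a percentage of the counts of both miR-126a arms; right, miR-126b-5p as a percentage of its own and miR-126a-3p counts, by library, with 95% Wilson intervals and group means as bars. On the left control-labelled library 3 lies far above the other 5 libraries; on the right all SCI-labelled points lie above all control-labelled points.

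miRNAs of other cell types also differed between the labels. All 5 miRNAs of the leukocyte and platelet list (miR-223-3p, miR-142a-3p, miR-142a-5p, miR-150-5p and miR-155-5p) were lower by edgeR, against 23.1% of all tested rows. Their sum was 328 to 450 CPM in SCI-labelled and 1778 to 2983 CPM in control-labelled libraries. All 4 red cell miRNAs were lower too, with sums of 2481 to 5230 CPM in SCI-labelled and 9424 to 32712 CPM in control-labelled libraries. Skeletal muscle miRNAs, of which 0 of 5 passed edgeR's test against 39.4% of all tested rows, summed to 9821 to 20427 CPM in the SCI-labelled libraries, and to 8285, 11920 and 37817 CPM in control-labelled libraries 1, 2 and 3. Of 5 neuron miRNAs (miR-124-3p, miR-128-3p, miR-129-5p, miR-137-3p and miR-218-5p) 3 were higher by edgeR, against 16.3% of all tested rows. Their sum was 31893 to 37547 CPM in SCI-labelled and 12524 to 15548 CPM in control-labelled libraries, most of it miR-218-5p and miR-128-3p. miR-124-3p, lower on average in SCI-labelled libraries, was at 797, 756 and 812 CPM in SCI-labelled libraries 1, 2 and 3. In control-labelled libraries 1, 2 and 3 it was at 660, 725 and 2008 CPM. The groups overlapped for miR-137-3p too. Of 3 oligodendrocyte miRNAs 0 passed as well (0 by an unadjusted edgeR p under 0.05 too, as for the muscle list), against the same 39.4%, with sums of 9580 to 10496 CPM in SCI-labelled and 8047 to 10921 CPM in control-labelled libraries. Of the 26 marker miRNAs of these lists and the mural list, 0 were at 0 counts in any library. The part of these differences in the miR-126 values was not tested.

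The miRNAs of mural cells, the smooth muscle cells and pericytes that wrap the endothelium, summed to 13543 to 14179 CPM in SCI-labelled and 8839 to 17512 CPM in control-labelled libraries. miR-143-3p was at 13180, 13633 and 13046 CPM in SCI-labelled libraries 1, 2 and 3, against 17008, 13125 and 8275 CPM in control-labelled libraries 1, 2 and 3. Its libraries thus stood in the same order within the control-labelled group as those of miR-126a-3p. This order was not peculiar to these miRNAs. The red cell sum stood at 32712, 26278 and 9424 CPM in control-labelled libraries 1, 2 and 3, and miR-10b-5p at 80625, 74623 and 53263 CPM. Other rows, such as let-7f-5p, did not share the order, and how many did was not counted. The log2 change of miR-143-3p was 0.054 (SE 0.25, edgeR adjusted p = 0.871), with the sign turned without control-labelled library 3 (-0.14). Of the 4 mural miRNAs 1 was called, the minor arm miR-143-5p, at 21.8 ± 3.19 CPM in SCI-labelled and 40.6 ± 8.20 CPM in control-labelled libraries (SD, n = 3 each; log2 -0.90, edgeR adjusted p = 0.0165). With 23.1% of all tested rows lower, 1 of 4 is close to the background and says nothing of mural miRNAs as a group. That call was lost without SCI-labelled library 2 (0.0859) or 3 (0.0688) or control-labelled library 1 (0.0547). miR-145a-5p (log2 0.39) and miR-145a-3p (-0.29) did not pass. Without control-labelled library 3, miR-145a-5p was past the test (log2 0.59, edgeR adjusted p = 0.0375).

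The rows most like miR-126a-3p were found by the root mean square difference of log2 CPM, each row centred on its own mean over the 6 libraries. Among 265 other rows with a mean of at least 50 CPM the median difference was 0.61. The nearest was miR-125b-1-3p (0.13), a minor arm of the miR-125b family. It was at 194, 183 and 227 CPM in SCI-labelled libraries 1, 2 and 3, against 399, 280 and 168 CPM in control-labelled libraries 1, 2 and 3. The next were miR-24-2-5p and miR-3074-2-3p (0.13 each), which face each other on opposite strands with nearly the same counts, then miR-143-3p (0.18) and miR-22-5p (0.21). These 5 rows were chosen for likeness over the same libraries, so an order shared with miR-126a-3p is not a separate finding. All 5, like miR-126a-3p, were highest in control-labelled library 1 and lowest of the control-labelled group in library 3. The choice rested on that library, since without it 1 of these 5 rows was still among the 5 nearest. Without control-labelled library 1, 3 of them were.

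Most members of a chosen list of other miRNAs described in endothelium and angiogenesis passed the test, most of these as lower. Of the 36 on the list, 35 were in the table and tested, and miR-296-5p was not analysed here. By edgeR, 24 of the 35 were lower in the SCI-labelled libraries, against 23.1% of all tested rows, and 4 were higher, against 16.3%. Without SCI-labelled library 1 or 3, 2 were higher. The median log2 change was -1.35, against -0.072 over all rows tested. The list was chosen with earlier results of these libraries known. miR-155-5p is also on the leukocyte and platelet list and miR-218-5p on the neuron list, so their calls are counted in both. Members made from the same transcript, such as miR-17-5p, miR-18a-5p, miR-19a-3p and miR-20a-5p, are not independent calls.

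The largest changes in the angiogenesis list were all falls. miR-19a-3p, a member of the miR-17-92 polycistron, was at 3.10 ± 1.17 CPM in SCI-labelled and 68.6 ± 1.26 CPM in control-labelled libraries (SD, n = 3 each), 22.0-fold lower (edgeR adjusted p = 5.23e-05). From the same polycistron came miR-18a-5p (log2 -2.84), miR-20a-5p (-2.71) and miR-17-5p (-2.55). miR-214-3p, made by mesenchymal cells, had a log2 change of -3.44. miR-503-5p and miR-16-5p, which restrain the cell cycle, had log2 changes of -3.26 and -2.31. The others of the 10 largest were miR-31-5p (-2.84), miR-200b-3p (-2.27), known from epithelia, and miR-155-5p (-2.23), induced by inflammation. All 10 were lower and past the test under each of the 16 alternatives run.

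Among the 5 most abundant of the list were the Hox-cluster miRNAs miR-10b-5p and miR-10a-5p, which promote sprouting of zebrafish vessels. miR-10b-5p was at 156385 ± 21768 CPM in SCI-labelled and 69504 ± 14381 CPM in control-labelled libraries (SD, n = 3 each), 2.25-fold higher (edgeR adjusted p = 0.0033). miR-10a-5p was higher by 0.85 on the log2 scale (0.0321), a call lost without control-labelled library 2 (0.0813) or SCI-labelled library 1 (0.0605), 2 (0.126) or 3 (0.063). The other 2 that were higher, named after their values were seen, were miR-218-5p (log2 1.42), a miRNA of motor neurons that also targets Robo receptors in vessels, and miR-34a-5p (1.39), whose call was lost without SCI-labelled library 1 (edgeR adjusted p = 0.0529) or 3 (0.0611).

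The remaining abundant members of the list had smaller differences. miR-100-5p had a log2 change of 0.26 and let-7f-5p one of -0.49, and neither passed. let-7f-5p did pass without control-labelled library 3 (-0.68, edgeR adjusted p = 0.00701) and with limma voom with quality weights (-0.62, adjusted p = 0.0311). miR-27b-3p, at about the level of miR-126a-3p, was at 13984 ± 932 CPM in SCI-labelled and 20391 ± 209 CPM in control-labelled libraries (SD, n = 3 each; log2 -0.54, edgeR adjusted p = 0.0251). Its call was lost without any single library but control-labelled 2 and 3, with edgeR adjusted p-values from 0.0747 (without control-labelled library 1) to 0.138 (without SCI-labelled library 1). Its mean difference was larger than that of miR-126a-3p and its control-labelled libraries were closer together.

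**Figure D5:**
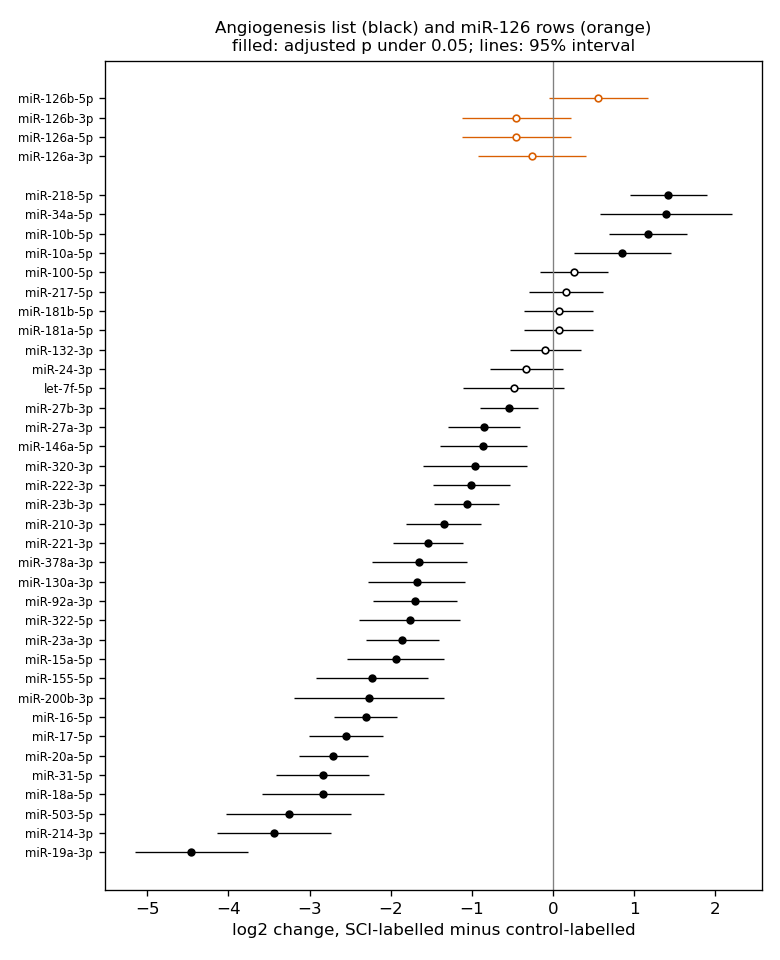
Log2 change, SCI-labelled minus control-labelled, with 95% intervals, of the 35 tested miRNAs of the angiogenesis list (black) and the 4 miR-126 rows (orange); filled points have an edgeR adjusted p under 0.05. Of the black points 24 are filled below 0 and 4 above 0, while the 4 orange points are open and their intervals include 0.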

How the data were processed

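Small RNA libraries were made from 3 µg of total RNA per mouse with the NEBNext small RNA kit, per the labels' protocols. The authors deposited raw read counts per miRNA and a TPM column for each library. The deposited TPM equals counts over the column total times 1e+06, to within 2.74e-05, and was not used further. Bowtie and mm10 are named in the submitters' processing notes. For the miRBase release, mismatches, strand and multiple mapping, the treatment is not given in the sources used here. The 12 columns were matched through the sample descriptions. Of 1482 rows, 1380 carry miRBase names and 102 are predicted.

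The counts went into edgeR 4.0.16 under R 4.3.3: filterByExpr (minimum count 10, 614 rows kept), TMM, the robust quasi-likelihood F test on group alone, and Benjamini-Hochberg adjustment over all 614 rows at 0.05. Standard errors are the change over the square root of F. Arm usage came from diffSpliceDGE's F test over the arms of each hairpin. It replaced the planned test of single arms, which recovered few simulated shifts, after both had been run on the data. Likeness used log2(CPM + 0.5). Alternatives used DESeq2 1.42.0, limma 3.58.1 and the settings of the closing section. Steps were tested on simulated data. The miR-126 rows were named in full. Other miRNAs were named as nearest in pattern, as the 10 largest called changes and the 5 most abundant of the angiogenesis list, as mural miRNAs or as a check of the labels; miR-223-3p and miR-451a served that check too and were both lower (log2 -3.75 and -2.56; edgeR). Members and lists were chosen with earlier results of these data known. No 2 libraries agreed within sampling noise.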

Additional observations from a re-analysis of the deposited data

How the results depend on the processing

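Each miR-126 row was refitted under 15 or 16 alternatives. These were 3 scalings, 2 filters, DESeq2, limma voom with quality weights, the replicate block and each library left out. The others were near-equal rows taken as 1 (not for miR-126b-3p) and the skeletal muscle list left out. miR-126a-5p and miR-126b-3p kept their sign and stayed short of the test in all alternatives. With a library left out, the log2 change ran from -0.49 to 0.11 for miR-126a-3p, from 0.42 to 0.85 for miR-126b-5p, from -0.36 to 0.51 for the arm ratio of miR-126a, from -1.25 to -0.55 for that of miR-126b and from 0.67 to 0.89 for miR-126b-5p over miR-126a-3p. The last 2 were added after seeing the data. The planned test of the 3p arm alone called 24 of 179 hairpins, against 54 for the F test over both arms, and neither miR-126 hairpin (adjusted p = 1.00 for miR-126a and 0.798 for miR-126b). Rows called ran from 54 to 152 higher, with 152 without control-labelled library 3, 54 without SCI-labelled library 3 and 63 without SCI-labelled library 1, and from 87 (without SCI-labelled library 3) to 179 lower. Angiogenesis list calls ran from 2 (without SCI-labelled library 1 or 3) to 4 higher and from 20 to 26 lower over all alternatives. miR-143-3p turned to -0.077 with limma voom and ran from -0.14 (without control-labelled library 3) to 0.37 with a library left out. miR-27b-3p also lost its call with the upper quartile (adjusted p = 0.101), no filter (0.0893) and the replicate block (0.0526), and miR-451a did with no filter (0.0906). The cause was not tested.

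Samples with the same replicate number did not consistently deviate together (correlations of -0.27, 0.19 and -0.18 over 614 rows). With 3 libraries per group these values cannot decide whether the numbers pair the samples. In the control-labelled group the replicate numbers also differ from the numbers in the column names, while in the SCI-labelled group they match. With the replicate block the log2 changes were -0.17 for miR-126a-3p, -0.42 for miR-126a-5p and 0.57 for miR-126b-5p, and 78 rows were higher and 112 lower. The arm ratio was 0.25. The median of all rows moved from -0.072 with TMM to -0.15 with the library total and 0.037 with the upper quartile. Counts behind the miR-126 rows were never below 562.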
